A study of Mus musculus with 10 samples.

Results

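The interferon signalling components described here were 9 genes of 18586 in the expression table, chosen by symbol for their known roles. The choice was made with earlier results of these data known. The 9 genes were the receptor chains Ifnar1, Ifnar2, Ifngr1 and Ifngr2, the kinase Jak1, the transcription factor subunits Stat2 and Irf9, and the transcription factors Irf1 and Irf3. RNA-seq had been run on 10 libraries of mouse tongue epithelial cells that were cultured after sorting for green fluorescence, following transgene induction for 15 days. All cells carried Krt14-CreERT, in which the Krt14 promoter drives a tamoxifen-activated Cre in basal epithelium, LSL-rtTA, a doxycycline-dependent transactivator that Cre switches on, and tetON_H2B-GFP, the reporter used for the sort. The 6 EY libraries, 2 from each of lines EY3960, EY4028 and EY4174, were of cells that also carried tetON_E6-E7, the HPV16 oncogenes, and tetON_YAP1S127A, an active form of the coactivator YAP1. The 4 N libraries, with neither oncogene, all came from 1 line, N4172. Genotype and line cannot be told apart in this design. Since libraries of 1 line are not separate animals, every p-value, SE and interval below measures the spread among these libraries only.

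Type I interferons, which most cells can make on sensing viral or misplaced nucleic acid, bind a receptor made of IFNAR1 and IFNAR2, whereas interferon gamma, made chiefly by lymphocytes, binds a receptor made of IFNGR1 and IFNGR2. Both receptors use JAK1. The type I receptor assembles ISGF3, a complex that holds STAT2 and IRF9 and binds the interferon-stimulated response element (ISRE), and the gamma receptor acts through the gamma-activated site (GAS). IRF3 acts earlier, downstream of the nucleic acid sensors, to switch on type I interferon genes, and IRF1 is itself induced by interferon and switches on antigen presentation and antiviral genes. Epithelial cells at barrier surfaces express these receptors and respond to interferons released nearby.

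The promoter sequences of Irf1, Irf9 and Stat2 are shown because the EY and N libraries were separated for Irf1 and Irf9, and because the STAT2 and IRF9 proteins act as partners. Each is a RefSeq window of the GRCm38.p6 build, on the plus strand and 5′ to 3′, from 250 bases before a start of transcription to 50 bases after it, and capitals mark a GAS (TTCNNNGAA) or the core of an ISRE (GAAA repeated after any 2 bases, here on the other strand). Irf1 lies at chr11:53769764-53770063, Stat2 at chr10:128270248-128270547 and Irf9 at chr14:55603735-55604034.
Irf1: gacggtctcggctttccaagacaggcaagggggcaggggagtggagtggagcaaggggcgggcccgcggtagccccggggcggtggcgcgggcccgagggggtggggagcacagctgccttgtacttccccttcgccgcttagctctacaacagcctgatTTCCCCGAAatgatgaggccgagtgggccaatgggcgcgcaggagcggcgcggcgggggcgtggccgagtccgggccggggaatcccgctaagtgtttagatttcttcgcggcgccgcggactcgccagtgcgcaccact
Stat2: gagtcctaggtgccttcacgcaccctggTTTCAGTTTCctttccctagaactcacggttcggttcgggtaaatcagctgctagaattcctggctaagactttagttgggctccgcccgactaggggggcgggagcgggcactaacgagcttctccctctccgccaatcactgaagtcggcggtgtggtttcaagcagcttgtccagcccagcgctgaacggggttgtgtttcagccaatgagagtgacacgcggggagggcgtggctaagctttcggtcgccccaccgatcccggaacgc
Irf9: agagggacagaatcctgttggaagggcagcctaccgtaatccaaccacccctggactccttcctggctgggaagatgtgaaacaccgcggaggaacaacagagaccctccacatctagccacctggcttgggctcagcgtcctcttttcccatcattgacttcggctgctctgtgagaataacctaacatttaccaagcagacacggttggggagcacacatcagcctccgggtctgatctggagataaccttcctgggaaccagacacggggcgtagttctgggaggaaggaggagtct
With the start at position 0, the GAS of Irf1 began at position -90 and the ISRE of Stat2 at position -222, and the Irf9 window held neither motif. Searched on both strands, the GAS letters occurred in 8.3% of 32851 promoters of the same length and the ISRE letters in 3.44%. The other members were searched in the same way, with 11 windows for the 9 genes, since Irf1 and Irf9 each had a second start with no match. The GAS letters also occurred once each in the windows of Ifnar1 (position -5) and Ifnar2 (position -214), and the ISRE letters in no other member. Neither the TEAD motif GGAATG, present in 14.7% of promoters and bound by the DNA-binding partners of YAP1, nor the AP-1 motif TGANTCA, present in 7.81%, occurred in any of the 11 windows. These are matches of letters and not measured binding sites.

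Expression was measured as TPM (a length-corrected share of each library's transcripts), as the authors deposited it. TPM keeps no read counts, so the depth behind each value is unknown and no counting interval can be given. Yap1, the targeted gene that the table lists, was at 34.7 to 57.1 TPM in the EY libraries and 17.2 to 20.9 TPM in the N libraries, while E6-E7 were not analysed here. The row does not separate the transgene from the endogenous gene. The keratinocyte markers Krt14 and Krt5 were among the abundant transcripts of every library, at 2517 TPM or more and 1321 TPM or more. Of the 8 keratinocyte markers, Epcam rose (0.82 on log2(TPM + 1), limma adjusted p 6.74e-05) and Trp63 fell (-0.58, 0.00262) in EY, and the part of such differences in the results below was not tested. Of 10 leukocyte markers 5 were in the table, and Ptprc, the pan-leukocyte marker, was close to 0 with means of 0.141 TPM in EY and 0.092 TPM in N. The listed markers of fibroblasts summed to at most 0.748 TPM, and those of endothelium to at most 0.606 TPM. The lysosomal gene Cd68, which is not restricted to leukocytes, reached 29.3 to 71.8 TPM in EY and 42.1 to 68.7 TPM in N. Library N4172 sample 4 lay apart from the other N libraries in 9 of 84 gene and group combinations examined, none of them one of the 9 signalling genes, and the difference between EY and N without it is given for each named pathway gene that it moved by more than 1.5 times or whose call or direction it changed. In bulk RNA, fewer cells of a type and less RNA per cell cannot be told apart.

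All 9 signalling genes were expressed above 1 TPM in each of the 10 libraries, so that every one was tested. On the TPM scale, which corrects for length, Irf3 was highest with a mean of 39.5 TPM over the 10 libraries, above 77.3% of the 11630 genes tested. Jak1 (21.5 TPM) and Ifngr1 (17.7 TPM) followed. Ifnar2 (11.0 TPM), Irf1 (10.5 TPM), Ifnar1 (9.19 TPM) and Ifngr2 (8.44 TPM) lay close together near the middle of the genes tested, with ranges over libraries that overlapped. Stat2 (2.42 TPM) and Irf9 (2.18 TPM), both subunits of ISGF3, were the lowest, above only 16.1% and 14.3% of the genes tested, and their ranges overlapped too.

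**Figure D1:**
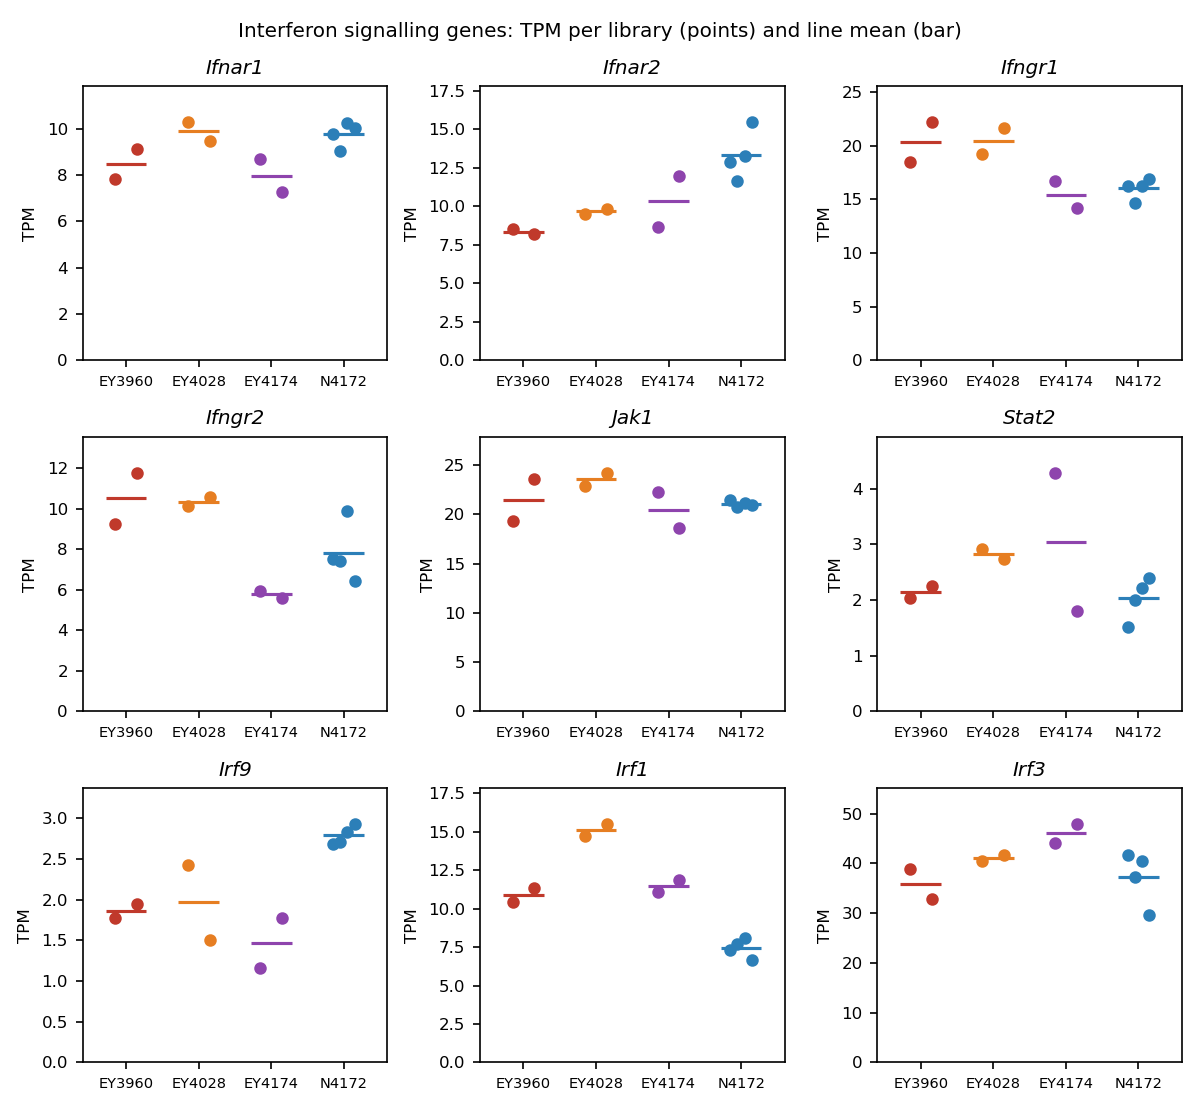
TPM (vertical axis of each panel, from 0) of each of the 9 interferon signalling genes in every library (points), by culture line (horizontal axis), with the mean of each line as a bar. Irf1 was above all 4 N libraries in all 6 EY libraries, Irf9 was below all 4 in all 6, and Ifngr2 was lowest in the 2 EY4174 libraries.

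EY and N were compared to ask which components changed with the oncogenic transgenes. Irf1 rose in EY, and it was the only one of the 9 to pass the threshold of the comparison, an adjusted p under 0.01 by limma over all genes tested. That is 1 of 9, where 11.8% of all genes tested passed and 6.84% passed as higher in EY, so the share among these genes was near that of the table. None passed both that threshold and a log2 fold change over 1, which 3.55% of genes did, although Irf1, Ifnar2 and Irf9, 3 of the 9, had an unadjusted limma p under 0.05, as did 37.5% of genes. The EY and N libraries did not overlap for 2 of the 9, Irf1 (EY above N) and Irf9 (EY below N), against 20.4% of all genes tested (11.3% with EY above N and 9.10% with EY below N). On average 6 members were higher in EY and 3 lower, beside 6276 and 5354 of all 11630 genes tested. The median difference of the 9 on log2(TPM + 1) was 0.13 (0.04 without N4172 sample 4), against 0.03 for all genes tested.

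Irf1 encodes a transcription factor and is itself an interferon target, which need not set it apart from the other members. It was measured at 10.5 and 11.4 TPM in EY3960, 14.7 and 15.5 TPM in EY4028, and 11.1 and 11.9 TPM in EY4174. The N libraries had 7.32, 7.69, 8.12 and 6.68 TPM. Every EY library lay above every N library, and the EY4028 libraries were the highest. EY averaged 12.5 ± 2.09 TPM (SD, n = 6, as for each EY mean below) against 7.45 ± 0.608 TPM for N (SD, n = 4), a difference of 0.66 ± 0.12 (SE) on log2(TPM + 1) with a 95% interval of 0.40 to 0.93 and an adjusted p of 0.00240 by limma. Without N4172 sample 1 the difference was 0.66 but the limma adjusted p was 0.0106, just over the threshold of 0.01, and without N4172 sample 4 it was 0.62 with an adjusted p of 0.00697. With line as a random block the adjusted p of Irf1 was 0.0469 for the same difference, and with 1 mean per line it was 0.414.

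Irf9, the DNA-binding subunit of ISGF3, was at 1.77 and 1.95 TPM in EY3960, 2.43 and 1.51 TPM in EY4028, and 1.16 and 1.78 TPM in EY4174. In N it was at 2.69, 2.71, 2.83 and 2.93 TPM. The N libraries were tightly grouped, and all 6 EY libraries lay below them. The means were 1.77 ± 0.427 TPM in EY and 2.79 ± 0.113 TPM in N, a difference of -0.47 ± 0.13 (SE) on log2(TPM + 1) with a 95% interval of -0.76 to -0.18. With a limma adjusted p of 0.0249, Irf9 did not pass the threshold. At so low a level the added 1 TPM shrinks a difference, and with 0.1 TPM added in its place the difference of Irf9 was -0.66 with an adjusted p of 0.0297.

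Stat2, the partner of IRF9 in ISGF3, was at 2.04 and 2.26 TPM in EY3960 and 2.91 and 2.73 TPM in EY4028. The 2 libraries of EY4174 differed from each other, with 4.28 TPM in sample 1 and 1.81 TPM in sample 2, the highest and the lowest Stat2 levels of EY. The N libraries had 1.52, 1.99, 2.22 and 2.39 TPM, from just below the EY range to its lower part. The difference of Stat2 was 0.25 ± 0.18 on log2(TPM + 1), with a 95% interval of -0.13 to 0.64 and a limma adjusted p of 0.322. Without EY4174 sample 1 it was 0.14, and without N4172 sample 1 it was 0.17. Sample 1 of EY4174 had the highest Stat2 and the lowest Irf9 of all 10 libraries. The ratio of Stat2 to Irf9 TPM, formed after these values were seen and therefore given without a test, ranged from 1.02 to 3.70 in EY and from 0.564 to 0.817 in N.

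None of the receptor chains passed the threshold, and Ifnar2 had the largest difference among them. Ifnar2, the high-affinity chain of the type I receptor, was at 8.50 and 8.18 TPM in EY3960, 9.53 and 9.80 TPM in EY4028, 8.65 and 11.98 TPM in EY4174, and 12.9, 11.6, 13.3 and 15.5 TPM in N. Of the 6 EY libraries 5 lay below every N library, with EY4174 sample 2 as the exception. The means were 9.44 ± 1.39 TPM in EY and 13.3 ± 1.61 TPM in N, and the difference was -0.46 ± 0.12 on log2(TPM + 1) with a 95% interval of -0.71 to -0.20. Its limma adjusted p of 0.0150 missed the threshold, which Ifnar2 passed without EY4174 sample 2 (-0.52, adjusted p 0.00423) and without line EY4174 (-0.51, adjusted p 0.00698). Ifnar1, the second chain of the same receptor, ranged from 7.27 to 10.3 TPM in EY (median 8.91) and from 9.06 to 10.2 TPM in N (median 9.91), with overlapping groups and a difference of -0.15 ± 0.10 (95% interval -0.37 to 0.08, limma adjusted p 0.337). The ratio of Ifnar2 to Ifnar1 overlapped between the groups, at 0.895 to 1.65 in EY and 1.28 to 1.54 in N.

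Ifngr1, the ligand-binding chain of the interferon gamma receptor, was at 18.5 and 22.2 TPM in EY3960, 19.2 and 21.6 TPM in EY4028, 16.7 and 14.2 TPM in EY4174, and 16.3, 14.7, 16.3 and 16.9 TPM in N. The EY3960 and EY4028 libraries were above every N library and the EY4174 libraries were not, and over all EY libraries the difference was 0.20 ± 0.12 on log2(TPM + 1) (95% interval -0.06 to 0.46, limma adjusted p 0.251). Ifngr2, the signalling chain of that receptor, was at 9.24 and 11.8 TPM in EY3960, 10.1 and 10.6 TPM in EY4028, 5.96 and 5.58 TPM in EY4174, and 7.49, 7.43, 9.86 and 6.43 TPM in N. Here the EY4174 libraries were below every N library, and 3 of the 4 libraries of the other lines were above every N library. The pooled difference of Ifngr2 was 0.13 ± 0.20 (95% interval -0.30 to 0.57, limma adjusted p 0.659). It was 0.23 or 0.24 without EY4174 sample 1 or 2, 0.24 without N4172 sample 3, and 0.05 to 0.08 without EY3960 sample 2, EY4028 sample 2 or N4172 sample 4. Both gamma receptor chains were thus lowest in EY4174 among the EY lines, and the ratio of Ifngr1 to Ifngr2 overlapped between EY (1.89 to 2.80) and N (1.65 to 2.63).

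Jak1, the kinase shared by both receptors, ranged from 18.7 to 24.2 TPM in EY (median 22.6) and from 20.8 to 21.4 TPM in N (median 21.05). The N libraries fell inside the EY range, and the difference of 0.04 ± 0.09 on log2(TPM + 1) had a 95% interval of -0.15 to 0.24 and a limma adjusted p of 0.758. Without 1 library it was 0.08 or 0.09 (EY3960 sample 1, EY4174 sample 2) or 0.02 or 0.014 (EY3960 sample 2, EY4028 sample 2). Irf3, the factor that induces interferon genes, ranged from 32.7 to 47.95 TPM in EY (median 41.1) and from 29.7 to 41.7 TPM in N (median 38.8), again with overlap, and differed by 0.14 ± 0.12 (95% interval -0.12 to 0.40, limma adjusted p 0.433). The difference of Irf3 was 0.035 without N4172 sample 4 and 0.09 without EY4174 sample 2. Each interval treats the libraries as separate, and so measures the spread among them only. With line as a random block the SE of Jak1 was 0.147 and that of Irf3 was 0.189, both larger than above. The smallest detectable difference was not determined.

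**Figure D2:**
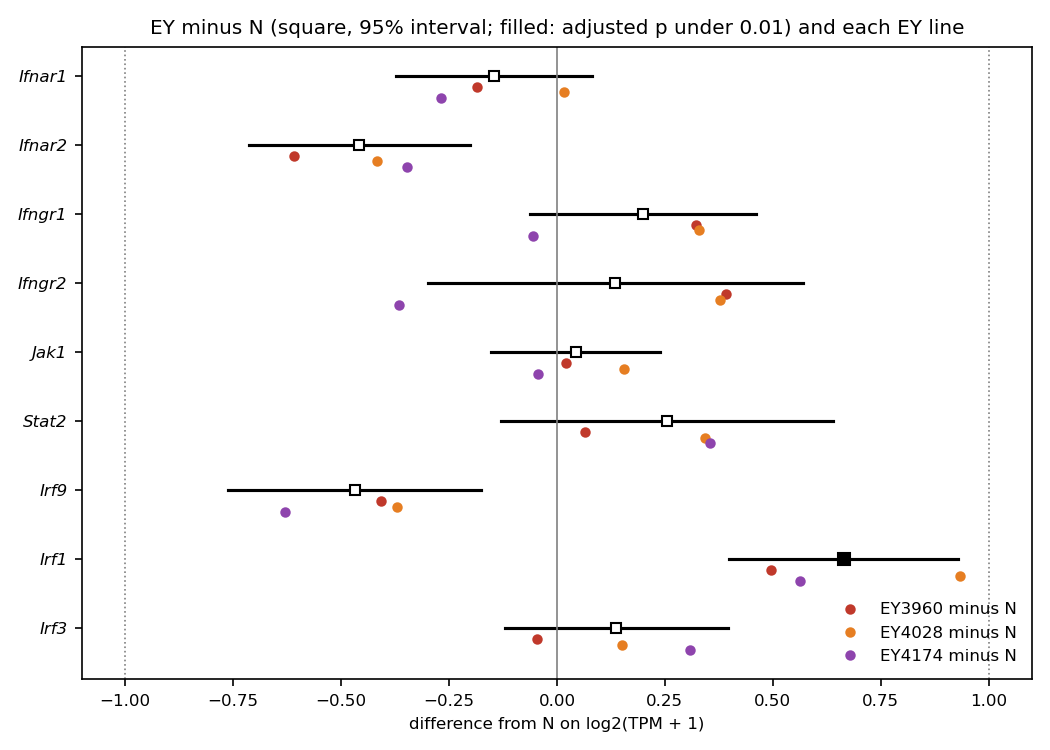
Difference from N on log2(TPM + 1) (horizontal axis) for each gene (vertical axis), as EY minus N with its 95% interval (square, filled where the adjusted p was under 0.01) and as each EY line minus N (coloured points), with dotted lines at -1 and 1. Irf1 (0.66) was the only filled square, and the Ifngr2 points lay on both sides of 0.

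The 3 EY lines were then each compared with N, in a fit with 4 line means. The 3 comparisons share the N libraries, so their values are only set side by side. Irf1 was 0.50 higher in EY3960, 0.93 higher in EY4028 and 0.56 higher in EY4174 on log2(TPM + 1), with limma adjusted p of 0.00587, 1.19e-04 and 0.00334. It was the only one of the 9 to pass the threshold in all 3 lines, which 5.67% of genes tested did in one direction. Ifnar2 passed in EY3960 alone, where it fell by 0.61 (limma adjusted p 0.00874). It differed by -0.42 in EY4028 and -0.35 in EY4174, with limma adjusted p of 0.0470 and 0.0896, and its level did not pass a test of difference among the lines (limma F test, adjusted p 0.444). Members passing the threshold were therefore 2 in EY3960, 1 in EY4028 and 1 in EY4174, against 17.0% (9.94% higher and 7.06% lower), 16.7% and 15.6% of all genes tested. In EY3960 the calls of Irf1 and Ifnar2 were both lost without any single library of EY3960 or EY4028 or without N4172 sample 1 (limma adjusted p 0.0140 to 0.0676), and 1 of them was lost without N4172 sample 2 (Irf1, 0.0117) or sample 3 (Ifnar2, 0.0217). In EY4174 the call of Irf1 was lost without either of its libraries or without N4172 sample 1 (limma adjusted p 0.0153, 0.0389 and 0.0101). Irf9 was lower than N on average in each line (-0.41, -0.37 and -0.63) with no pass, the smallest limma adjusted p being 0.0149 in EY4174. In EY4028 the difference of Irf9 was -0.14 without sample 2 and -0.60 without sample 1.

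Among the EY lines, no member passed the limma F test of line differences at an adjusted p under 0.01, whereas 8.55% of genes did. At an unadjusted p under 0.05 the same limma test gave 3 of the 9, against 34.8% of genes. Ifngr2 came closest, with an adjusted p of 0.0192. It was 0.76 lower in EY4174 than in EY3960 and 0.74 lower than in EY4028 on log2(TPM + 1), with means of 5.77, 10.5 and 10.3 TPM. Against N, Ifngr2 differed by 0.39 in EY3960, 0.38 in EY4028 and -0.37 in EY4174, none of which passed (limma adjusted p 0.0858, 0.0910 and 0.101). Without N4172 sample 4 the adjusted p of the F test was 0.00548 for Ifngr2. Irf1 followed with an adjusted p of 0.0542 by the F test, its mean being 15.1 TPM in EY4028 against 10.9 and 11.5 TPM in EY3960 and EY4174, and then Ifngr1 with 0.0875.

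The members were also compared with one another across libraries, as a description over 10 points that share their lines. Ifngr1 and Ifngr2 varied together, with a Pearson correlation of log2(TPM + 1) of 0.80 over the 10 libraries and 0.94 over the 6 EY libraries. Ifngr1 and Jak1 had 0.75 and 0.79. Ifnar2 and Irf9, both lower in EY on average, had a correlation of 0.72 over all libraries but 0.10 within EY, so that it followed the difference between the groups. Ifnar2 and Irf1 had -0.70 over all libraries and 0.34 within EY. Only some of the pairs are named here. Strong values within EY were also seen for Ifnar1 and Jak1 (0.89), Ifngr2 and Irf3 (-0.83) and Ifngr1 and Irf3 (-0.81).

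**Figure D3:**
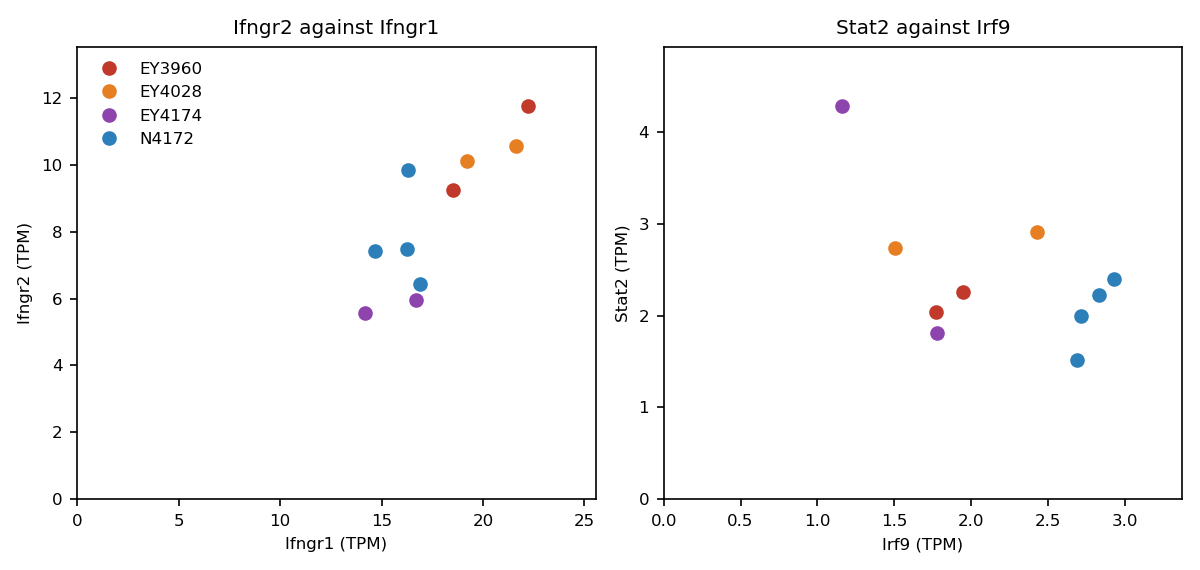
TPM of Ifngr2 against Ifngr1 (left) and of Stat2 against Irf9 (right) in each of the 10 libraries (points, coloured by line), with both axes from 0. The 2 gamma receptor chains varied together and were lowest in EY4174 among the EY lines, and the N libraries lay at the high end of Irf9 (2.69 to 2.93 TPM).

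The genes whose profile over the 10 libraries was most like that of a member were taken by Pearson correlation among 7628 genes with a mean of at least 5 TPM (7629 for Stat2 and Irf9). For Irf1 they were Eif2b3 (0.973), Vgll3 (0.972) and Aco1 (0.971). For Irf9 they were Ift20 (0.945), Mrpl49 (0.930) and Mbip (0.927), and for Ifnar2 they were Htra1 (0.988), Atp23 (0.958) and Pdcd2 (0.956). For Ifnar1 they were Med23, Marf1 and Clcn3, for Ifngr1 Fem1c, Zdhhc5 and Fam102b, and for Ifngr2 Cnot10, Gmps and Nab1. For Jak1 they were Rock1, Gnl3l and Odf2l, for Stat2 Polr2a, Ccdc130 and Ppfia1, and for Irf3 Ska1, Rpf2 and Anp32b. None of these genes belonged to the interferon pathway lists used here. The correlations of Stat2 were the weakest of the 9, with 0.907 for Polr2a.

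The rest of the pathway was described with 150 genes in 7 lists. The table held 111 of them, and 79 had levels high enough to test. Of these, 5 were higher and 6 lower in EY at an adjusted p under 0.01, which is 11 of 79 beside the 11.8% of all genes (6.84% higher and 5.0% lower), and these shares stand beside the count of each list below, as does 37.5% for an unadjusted p under 0.05. The 18 listed interferon genes, the ligands, had no row in the expression table under the symbols searched, so their levels cannot be given. Of the other receptor chains, JAKs and STATs, 10 were tested by limma and none passed (1 at an unadjusted p under 0.05), and their median difference was -0.14 on log2(TPM + 1). Tyk2, the kinase of IFNAR1, and Il10rb, a receptor chain encoded beside Ifnar1 and Ifnar2, were named for their roles and not by the naming rule, with differences of 0.09 (0.15 without N4172 sample 4) and -0.33 and limma adjusted p of 0.639 and 0.0534. Stat6 and Il6st, the most abundant of that list, differed by -0.10 (-0.18 without N4172 sample 4) and 0.07.

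Of the list of other IRF genes 5 were tested by limma, and none passed (1 at an unadjusted p under 0.05). The median difference was 0.16, and -0.10 without N4172 sample 4. Irf2bp1, Irf2bp2 and Irf2bpl, on this list, encode IRF2-binding proteins and are not IRF genes themselves, so the count and the median cover both kinds. Irf2bp1 and Irf2bpl are named here outside the naming rule. Irf2bp2, among the most abundant of that list, had means of 4.88 TPM in EY and 6.02 TPM in N and a difference of -0.25 with a limma adjusted p of 0.153 (-0.15 without N4172 sample 4).

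Of the sensors and adaptors upstream of IRF3, 14 of 18 in the table were tested, and 2 rose and 1 fell, against 6.84% and 5.0% of all genes, with a median difference of 0.03 (0.08 without N4172 sample 4). Ikbke, a kinase that phosphorylates IRF3, rose from 14.1 ± 1.90 TPM in N to 26.1 ± 4.68 TPM in EY (difference 0.83 ± 0.14, limma adjusted p 0.00137), and all EY libraries were above all N libraries. Mb21d1, which encodes the cytosolic DNA sensor cGAS, rose from 2.62 ± 0.480 TPM to 5.83 ± 1.25 TPM (0.90 ± 0.16, limma adjusted p 0.00165), also without overlap. With line as a random block both calls were lost, at limma adjusted p of 0.0331 for Ikbke and 0.0423 for Mb21d1. Traf6, a ubiquitin ligase of Toll-like receptor signalling, fell from 16.0 ± 2.31 TPM to 11.0 ± 1.39 TPM (-0.50 ± 0.12, limma adjusted p 0.00983). When each of the 10 libraries was left out in turn, the call of Traf6 held only without EY3960 sample 2, and the limma adjusted p was 0.0140 to 0.0356 without any of the others. Without N4172 sample 4 the difference of Traf6 was -0.42 (limma adjusted p 0.0250). Tbk1, the second IRF3 kinase, was at 25.8 TPM in EY and 26.0 TPM in N with a limma adjusted p of 0.999 (a difference of 0.10 without N4172 sample 4), and Azi2, an adaptor of these kinases, was at 30.9 and 38.2 TPM with 0.0231.

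Of 17 inhibitors of JAK-STAT signalling tested by limma, none passed (8 at an unadjusted p under 0.05, against 37.5% of all genes), and their median difference was 0.15. The phosphatases Ptpn2 and Ptpn1 were the most abundant of them, at 58.4 TPM in EY and 52.7 TPM in N for Ptpn2 (limma adjusted p 0.122) and at 45.8 and 34.4 TPM for Ptpn1 (0.0369).

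The table held 38 of 55 interferon-stimulated genes, and of the 18 tested 4 fell and none rose, where 5.0% of all genes fell and 6.84% rose. On average 14 were lower in EY, beside 5354 of all 11630 genes tested, and the median difference was -0.15. An unadjusted limma p under 0.05 was found for 7 of the 18, against 37.5% of genes. Ifi27, a mitochondrial interferon-stimulated protein, fell from 12.8 ± 0.616 TPM in N to 6.53 ± 1.22 TPM in EY (-0.89 ± 0.13, limma adjusted p 5.67e-04). Parp9, a cofactor of interferon signalling, fell from 3.05 ± 0.604 TPM to 1.06 ± 0.289 TPM (-0.97 ± 0.15, adjusted p 8.70e-04). Ifi35 fell from 22.2 ± 3.08 TPM to 13.98 ± 2.04 TPM (-0.63 ± 0.12, adjusted p 0.00368), and Samd9l, an antiviral factor, from 2.57 ± 0.672 TPM to 0.919 ± 0.444 TPM (-0.91 ± 0.19, adjusted p 0.00578). The calls of Ifi27 and Parp9 held whichever library was left out, but with line as a random block all 4 were lost, at limma adjusted p of 0.0372 for Ifi27, 0.0356 for Parp9, 0.0985 for Ifi35 and 0.10 for Samd9l. Ifi35 lost its call without N4172 sample 1, 2 or 3 (limma adjusted p 0.0165 to 0.0184). Samd9l lost it without those 3 libraries or without any library of EY3960 or EY4174 (limma adjusted p 0.0106 to 0.0257). Ifitm3, the most abundant of the list, had means of 442 TPM in EY and 421 TPM in N and differed among the EY lines (limma F test, adjusted p 0.00102), with 189.5 and 213.6 TPM in EY4174 against 528 to 583 TPM in the other lines. Its difference from N was -0.05, and 0.12 without N4172 sample 4. Ifitm2, the next most abundant, had means of 116 and 169 TPM and a limma adjusted p of 0.0981.

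Of 15 MHC class I presentation genes tested, 3 rose and 1 fell, against 6.84% and 5.0% of all genes. On average 6 were higher and 9 lower in EY (6276 and 5354 of all 11630 genes tested). Their median difference was -0.01 (0.10 without N4172 sample 4), and a link of these genes to Irf1 was not tested. H2-K1 rose from 88.1 ± 6.37 TPM to 130.2 ± 7.42 TPM (0.56 ± 0.07, limma adjusted p 2.05e-04), H2-D1 from 97.6 ± 8.0 TPM to 133.5 ± 7.54 TPM (0.45 ± 0.07, limma adjusted p 0.00110), and H2-Q4 from 3.84 ± 0.528 TPM to 6.15 ± 0.943 TPM (0.56 ± 0.12, limma adjusted p 0.00743). These genes are close in sequence, so that reads may have been shared among them, and H2-Q4 lost its call without either EY4028 library, EY4174 sample 1, EY3960 sample 2, or N4172 sample 1, 2 or 3 (limma adjusted p 0.0111 to 0.0322). Psme1, a subunit of the proteasome activator PA28, fell from 36.9 ± 10.8 TPM to 11.5 ± 1.87 TPM (-1.57 ± 0.16, limma adjusted p 5.64e-05), and it was the only 1 of the 79 listed genes to pass both thresholds. Without N4172 sample 4, Parp9 (-1.09) and Samd9l (-1.06) passed both as well, making 3, and the count was also 3 without EY4028 sample 2, 2 without EY4028 sample 1 and 4 with a pseudocount of 0.1 or 0.5. Calr and Pdia3, the most abundant of the list, had differences of 0.46 and -0.01 with limma adjusted p of 0.416 and 0.945. Without N4172 sample 4, which had 702 TPM of Calr where the other N libraries had 171 to 188 TPM, Calr was 0.95 higher in EY (limma adjusted p 3.46e-04), and Pdia3 differed by 0.10 (0.438). With line as a random block, Psme1 alone of the 11 listed genes kept an adjusted p under 0.01 (limma, 0.00561).

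**Figure D4:**
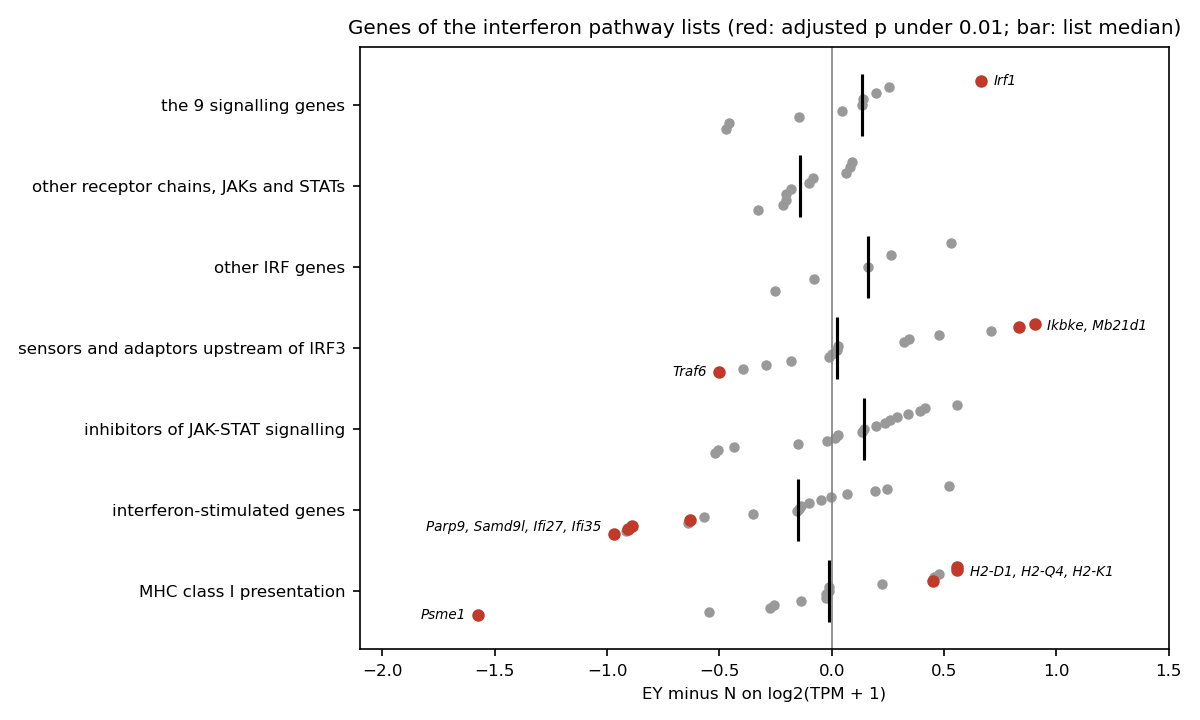
Difference between EY and N on log2(TPM + 1) (horizontal axis) for each tested gene (points) of the 9 signalling genes and of 6 pathway lists (vertical axis), red where the adjusted p was under 0.01, with the list median as a bar. The 4 red points among the interferon-stimulated genes were all below 0, while Ikbke, Mb21d1, Irf1 and 3 MHC class I genes were above 0.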

How the data were processed

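Poly(A) RNA-seq of 6 EY and 4 N libraries was analysed from 1 table of 18586 gene symbols, in which the authors deposited TPM per library. The submitters' processing notes name STAR 2.7.9, SAMtools 1.7, HTSeq 0.13.5, DESeq2 1.34.0 and GRCm39, while the paper's enrichment methods describe Kallisto TPM from a human transcriptome with the highest transcript kept per gene. Which of these made the table is not given in the sources used here, and a gene's TPM may depend on it. Spreadsheet dates stood in place of 20 symbols, none of them a gene of the lists. Groups and lines were taken from the labels.

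Values were tested as log2(TPM + 1) with limma 3.58.1 in R 4.3.3 (trend and robust options) for the 11630 genes that reached 1 TPM in 4 or more libraries, with Benjamini-Hochberg adjustment over all of them. The thresholds were an adjusted p of 0.01 and an absolute log2 fold change of 1. A second fit had 4 line means, with an F test among EY lines. The fits were tested on simulated data. The 9 genes, the lists and the settings were chosen with earlier results of these data known. Text names the members, Yap1, marker genes, up to 4 genes past the p threshold and the 2 most abundant of each list, and the 3 genes most correlated with each member. Others are said to be outside this rule, and some genes of the lists are counted but not reported by name here. Motifs were searched in RefSeq promoters (GRCm38.p6). Alternatives covered the pseudocount, the filter, scaling, limma's options, each library, each line and blocks.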

Additional observations from a re-analysis of the deposited data

Results flagged for a closer look

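Among groups of 4 or 6 libraries, a single library lay far from the others by Dixon's test in 9 of 84 combinations of gene and group, where chance alone gives about 1 in 20, or 4.2. All 9 were library N4172 sample 4 within N, and none was one of the 9 signalling genes. In that library Irf2bp2 was at 7.59 TPM, Parp9 at 2.15 TPM, Samd9l at 1.57 TPM, Ifitm3 at 584 TPM, Ifitm2 at 232 TPM, Calr at 702 TPM, Trp63 at 99.9 TPM, Ly6g at 1.26 TPM and Pecam1 at 0.479 TPM. Parp9 and Samd9l were lower there than in the other N libraries, and the other 7 genes were higher.

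Ifngr2 differed in direction between EY lines, with all libraries of EY3960 and EY4028 above the N mean and both libraries of EY4174 below it. The limma F test among the lines gave an adjusted p of 0.0192, which missed the threshold. Of the other genes named, Ifitm3 (adjusted p 0.00102), Krt14 (0.00271), Krt5 (6.03e-04) and Cd68 (0.00237) differed among EY lines by limma's F test. Ifitm3 and Ifngr2 were lowest in EY4174 and Krt14 and Krt5 in EY3960, where Cd68 was highest.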

How the results depend on the processing

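Each of the 9 differences was recomputed under 24 alternatives, and no member passed both thresholds in any of them. Irf1 kept its direction in all (0.53 to 0.75) and lost its call in 4, namely without N4172 sample 1 (0.66, limma adjusted p 0.0106), with line as a random block (0.66, adjusted p 0.0469), with line means (0.66, adjusted p 0.414) and with a replicate block by sample number (0.65, limma adjusted p 0.0459). Ifnar2 passed in 2 (-0.52 and -0.51, limma adjusted p 0.00423 and 0.00698, without EY4174 sample 2 and without that line). Irf9 passed in none (-0.66 to -0.39). Jak1 reversed without line EY4028 (-0.012). The number of members past the adjusted p threshold was 1, 0 to 2 on leaving out 1 library, 2 without line EY4174, and 0 under the random block, line means and the replicate block. The number of genes past both thresholds, 413, was 216 with at least 1 TPM required in every library, 203 with the random block, 2 with line means, 221 with the replicate block and 295 to 588 under the other alternatives. The number of pathway genes past the p threshold, 11, was 1, 0 and 3 under the random block, line means and the replicate block, and 7 to 11 on leaving out 1 library. The 2 members past it in EY3960 became 1 with no filter, quantile normalization, equal medians, mitochondrial genes removed, or neither trend nor robust options, and 0 to 2 on leaving out 1 library. The 1 member in EY4174 became 0 to 1, and the count between lines, 0, became 0 to 1 (Ifngr2 without N4172 sample 4). The cause of these changes was not tested, except that 4 line means leave few residual degrees of freedom. The labels do not say what the sample numbers mark. The differences between samples 1 and 2 correlated between lines by -0.148 to 0.0518. Such a correlation over all genes cannot tell whether libraries of the same number shared a batch.

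With TPM alone the depth is unknown, and each EY line has 2 libraries and N 1 line. The median difference over all genes stayed between -0.01 and 0.05 under every alternative.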
